A study of Mus musculus with 4 samples.

Results

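Interferon-stimulated effector genes, the antiviral and immune genes that cells switch on when an interferon binds its receptor, were followed through female mouse neural stem cells with and without the chromatin protein Smchd1. The members were chosen from a list of 39 gene symbols, and a member is a row of the count table whose symbol equals a listed one. Of the 39 symbols, 38 had a row, of 25965 rows in all, and Ifi27 had none under that symbol. The study measured RNA from cultured neural stem cell lines made from E14.5 embryos, and the values are read counts per gene in 4 libraries. The Smchd1 del/del group held 2 libraries, for which part of a line had received Cre recombinase from the retrovirus MSCV-Cre-puro, was put under puromycin 24 h later and was collected 7 days after transduction. Their controls were 2 libraries of genotype Smchd1 del/fl, the untransduced remainder of the same 2 lines, which already lacks Smchd1 on 1 of its alleles. All 4 shared the strain background (C57BL/6 129/Castaneus mix), a maternal 129 X chromosome with the Xist deltaA allele and a paternal Castaneus (Cast) X. Each line therefore gave 1 library per genotype. The lines are called A and B here, and where a genotype has a pair of values, line A comes first. Deletion of Smchd1, transduction and puromycin selection cannot be told apart in these libraries, since no empty-vector library was among them, and further lines that the design text counts were not analysed here.

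As background, type I interferons bind the receptor chains Ifnar1 and Ifnar2, whose kinases Jak1 and Tyk2 phosphorylate transcription factors, Stat2 among them. Stat2 and Irf9 are subunits of the complex ISGF3, which binds interferon-stimulated response elements near the start of its target genes, while type II interferon acts through gamma-activated sites. The proteins made in response block entry, replication and release of viruses, modify other proteins and feed back on the pathway, and neural stem cells are known to carry interferon receptors.

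The response element was read in the RefSeq promoter sequences (GRCm38.p6, the mm10 build), which run from 250 bases before a gene's start to 50 after it. It was searched on both strands as 2 GAAA tetramers separated by any 2 bases, where the opposite strand reads TTTC, and the gamma-activated site as TTCNNNGAA. Of 29 members with a promoter in that table, 13 (44.8%) held the paired tetramers, against 3.99% of all 27025 genes in it, and 8 members (27.6%) held TTCNNNGAA, against 9.55% of all genes. The motifs overlapped in 2 member promoters. A match describes letters in this window, not a bound site. In 26 of 37 member windows the first 20 bases after the start lay in an annotated transcript of the gene. In the others they did not, so positions relative to the start are less sure there. The sequences below show the paired tetramers in members from several families, each as 60 bases on the strand of the gene around the match nearest the start, with the matching letters in capitals and the position of the match's first base given relative to the start.

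Ifit1 (chr19:34640779-34640838, plus strand, match at −85): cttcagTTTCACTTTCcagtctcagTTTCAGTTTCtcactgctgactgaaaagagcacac
Isg15 (chr4:156200850-156200909, minus strand, match at −66): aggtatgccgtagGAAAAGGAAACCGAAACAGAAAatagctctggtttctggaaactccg
Rsad2 (chr12:26456538-26456597, minus strand, match at −120): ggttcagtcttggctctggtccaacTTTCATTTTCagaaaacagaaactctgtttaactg
Irgm1 (chr11:48871410-48871469, minus strand, match at −24): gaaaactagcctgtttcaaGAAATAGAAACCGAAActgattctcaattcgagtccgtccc
Gbp3 (chr3:142559980-142560039, plus strand, match at −39): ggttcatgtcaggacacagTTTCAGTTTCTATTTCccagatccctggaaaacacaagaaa
Stat2 (chr10:128270251-128270310, plus strand, match at −222): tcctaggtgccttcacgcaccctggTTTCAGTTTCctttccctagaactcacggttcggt
Trim30a (chr7:104465195-104465254, minus strand, match at −36): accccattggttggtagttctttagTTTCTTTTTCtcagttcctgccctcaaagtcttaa

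Ifit1 holds the element as separate copies, Isg15, Irgm1 and Gbp3 hold runs of overlapping copies, and Rsad2, Stat2 and Trim30a hold 1 copy in the stretch shown. These 7 genes are used below to set sequence beside expression.

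The 4 libraries held 29873400 to 34018500 counts, so that a count of 0 allows a level of up to 0.0880 to 0.101 CPM (counts scaled to library size, normalised by TMM). Smchd1 had 785 and 852 counts in del/del cells, against 2779 and 3461 in del/fl cells, which is 0.251 of the control level in line A and 0.262 in line B, over the whole gene, with reads of the deleted stretch not counted apart. All 10 neural stem cell markers listed passed the filter on low counts, with summed levels of 10393 and 9304 CPM in del/del cells, against 9880 and 9160 CPM in del/fl cells. Of 14 microglia and macrophage markers, 8 were at 0 in every library (Cx3cr1, Tmem119, C1qa, C1qb, C1qc, Tyrobp, Trem2 and Spi1, the last under its older symbol) and 3 more had at most 4 counts. The list summed to 19.2 and 14.6 CPM in del/del cells, against 17.6 and 15.3 CPM in del/fl cells, nearly all of it Csf1r, Cd68 and P2ry12. Mesenchymal markers summed to at most 2.15 CPM and endothelial markers to at most 3.46 CPM in any library.

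Interferon-stimulated genes stood higher in the del/del cells of line A, in nearly every family, while in line B most lay close to their control. In line A, 28 of the 33 tested members were at least 2-fold higher in del/del than in del/fl cells, against 7.07% of all 14860 genes tested, and 0 were at least 2-fold lower, against 1.59%. In line B, 4 members (Trim30a, Ifi44, Gbp9 and Rtp4) were at least 2-fold higher, against 3.62% of all genes, and 1 (Ifi35) was at least 2-fold lower, against 1.55%. The same 4 were at least 2-fold higher in both lines, against 2.38% of all genes. Of the 33, 3 (Isg15, Ifi44 and Trim30a) passed the filter on low counts only with the help of a del/del library, and of the other 30, 25 were at least 2-fold higher in line A and 2 in line B. The median log2 change of the members was 1.94 in line A, where the median of all tested genes was 0.02, and 0.24 in line B, where it was −0.000529. The change was positive in 33 of 33 members in line A and in 24 of 33 in line B, against 51.7% and 49.9% of all tested genes.

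Each of these within-line changes sets 1 library against 1, so none has a test, and its 95% interval covers counting error only. By those intervals the change lay above 0 for 32 members and held 0 for 1 (Irf1) in line A, while in line B it lay above 0 for 11, below 0 for 5 and held 0 for 17. The share of all tested genes with intervals clear of 0 was not computed, so these counts describe the members only. Over the 38 members together, counts added up to 1192 and 304 CPM in del/del cells, against 370.4 and 297 CPM in del/fl cells. The summed level was 3.22-fold that of the control in line A and 1.02-fold in line B. In bulk RNA, a few cells with much more of these transcripts and all cells with somewhat more cannot be told apart. The call of 2-fold was made on the log2 ratio of CPM with a prior count of 1, and folds quoted for single genes are plain ratios of CPM.

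**Figure D1:**
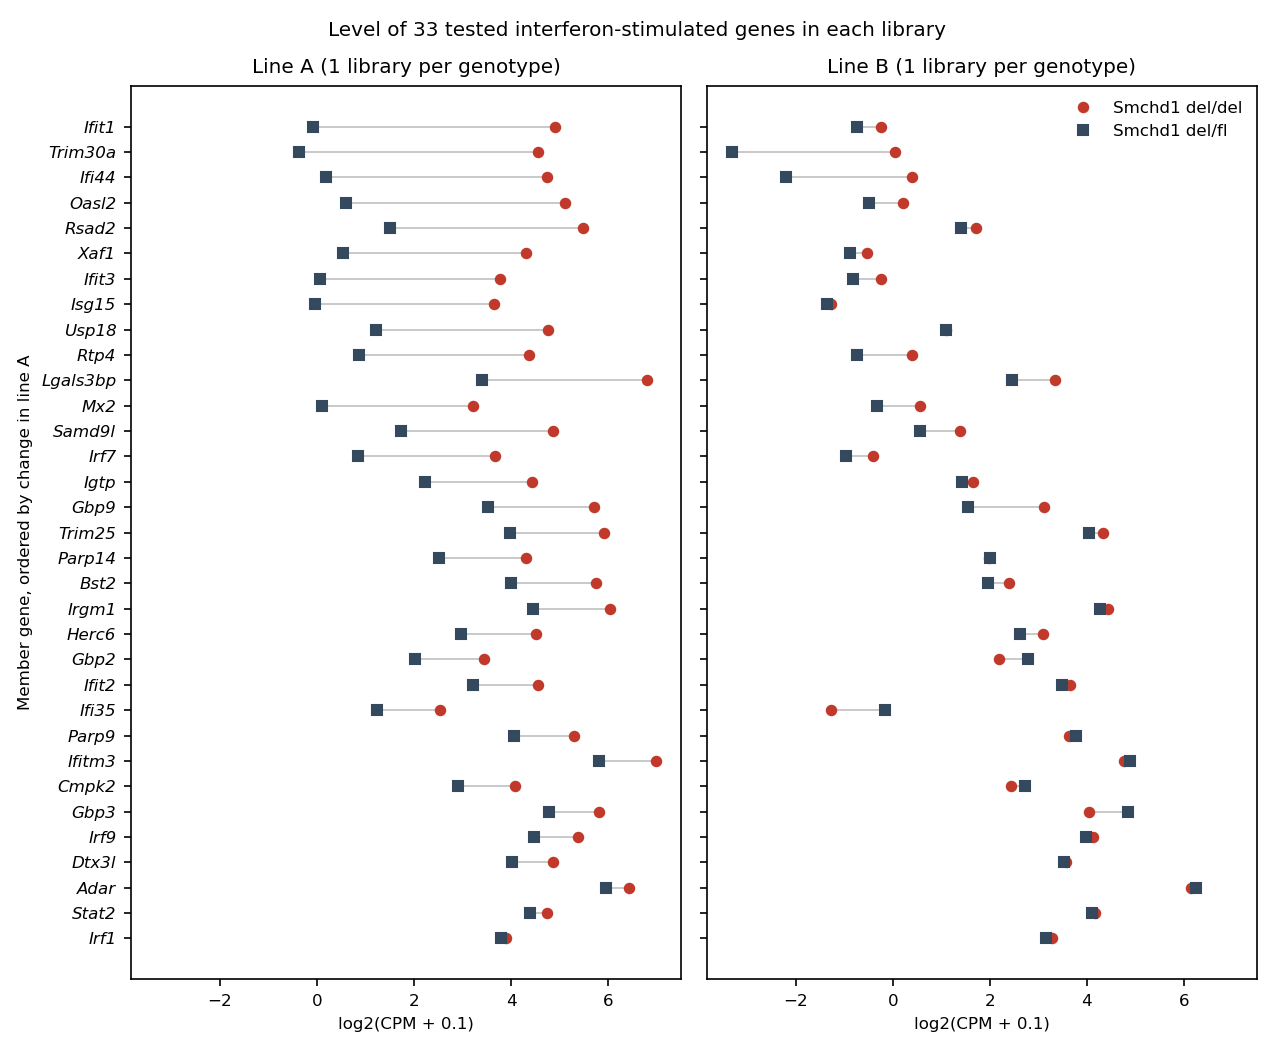
Level of each tested member on a scale of log2(CPM + 0.1), in line A (left) and line B (right), with Smchd1 del/del cells as red circles and Smchd1 del/fl cells as dark squares (1 library each, no error bars), ordered by the change in line A. In line A the red circles lie right of the squares for all 33 members, while in line B circle and square lie close together for most and the circle lies left of the square for 9.

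The transcription factors that carry the signal stood closer to their controls than many of their target genes. Irf9, the DNA-binding subunit of ISGF3, had 41.6 and 17.5 CPM in del/del cells, against 22.05 and 15.7 CPM in del/fl cells. That is 1.89-fold (95% counting interval 1.72 to 2.07) in line A and 1.12-fold (95% counting interval 0.989 to 1.26) in line B. Stat2, its partner in the complex and a gene with a match to the response element at −222, had 26.7 and 17.9 CPM in del/del cells, against 20.8 and 17.2 CPM in del/fl cells. The difference for Stat2 was 1.28-fold (95% counting interval 1.16 to 1.42) in line A, where the del/del library was the highest of the 4, and 1.04-fold (95% counting interval 0.928 to 1.17) in line B. Irf1, a factor induced mainly through gamma-activated sites and 1 of the members with TTCNNNGAA in its promoter, had 14.9 and 9.60 CPM in del/del cells, against 13.8 and 8.86 CPM in del/fl cells. For Irf1 both lines gave the same ratio, 1.08-fold, with counting intervals of 0.942 to 1.23 in line A and 0.921 to 1.27 in line B that hold no change, and the lines differed more than the genotypes did. Irf7, which amplifies interferon production, was the only one of the 4 factors at least 2-fold higher in line A, at 7.51-fold (95% counting interval 5.59 to 10.3), with 12.6 and 0.656 CPM in del/del cells, against 1.68 and 0.411 CPM in del/fl cells. Irf9 overlaps Rnf31 on its own strand, and Irf7 and Irf1 overlap genes on the opposite strand, so their counts may hold reads of those genes.

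The IFIT proteins bind viral RNA, and their genes form a cluster on chromosome 19 (34550694 for the start of Ifit2 to 34650009 for the end of Ifit1, mm10). All 3 were at least 2-fold higher in del/del cells of line A and none was in line B. Ifit2 had 23.3 and 12.6 CPM in del/del cells, against 9.12 and 11.2 CPM in del/fl cells. Its ratio was 2.56-fold (95% counting interval 2.22 to 2.95) in line A and 1.12-fold (95% counting interval 0.972 to 1.29) in line B, and both del/del libraries lay above both controls. Ifit1, whose response elements are printed above, had the highest plain ratio of the tested members in line A at 35.3-fold (95% counting interval 23.8 to 54.9). Its levels were 29.7 and 0.750 CPM in del/del cells, against 0.842 and 0.499 CPM in del/fl cells, so that the del/del library of line B lay between its controls. Ifit3 was 14.4-fold higher in line A (counting interval 9.84 to 21.9) and 1.60-fold in line B (0.814 to 3.22), and its counts are uncertain because of its close copy Ifit3b.

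Genes of the oligoadenylate synthetase family and genes that bind or edit nucleic acids ranged from nearly unread to many-fold higher in line A. Oasl2, a relative of the oligoadenylate synthetases, had 34.6 and 1.06 CPM in del/del cells, against 1.41 and 0.616 CPM in del/fl cells. The ratio was 24.5-fold (95% counting interval 18.02 to 34.2) in line A, while in line B it was 1.72-fold (95% counting interval 0.973 to 3.13). The synthetases themselves, which make the signal that activates RNase L, did not pass the filter. Oas1a had 58 and 0 counts in del/del cells, against 0 and 0 in del/fl cells, which makes its level in line A at least 17.2-fold higher than a floor of 3 counts in the control. Oas2 had 38 and 1 counts in del/del cells, against 5 and 0 in del/fl cells, so both were read almost only in del/del A. Adar, which edits adenosines in double-stranded RNA, had 86.2 and 71.1 CPM in del/del cells, against 61.9 and 75.8 CPM in del/fl cells. Its levels in the 4 libraries overlapped between genotypes, with 1.39-fold (95% counting interval 1.31 to 1.48) in line A and 0.937-fold (95% counting interval 0.885 to 0.991) in line B. Zbp1, a sensor of Z-form nucleic acid, had 2 counts in del/del A and 0 in the other libraries.

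The ISG15 system, in which the small protein Isg15 is attached to other proteins, was higher in line A in all 3 of its genes. Usp18, which removes Isg15 and dampens the receptor, had 26.9 and 2.03 CPM in del/del cells, against 2.22 and 2.05 CPM in del/fl cells. The ratio of Usp18 was 12.1-fold (95% counting interval 9.44 to 15.8) in line A, against 0.989-fold (95% counting interval 0.695 to 1.41) in line B, where a difference was not detectable at this depth. Herc6, known in the mouse as the main ligase for Isg15, had 22.7 and 8.44 CPM in del/del cells, against 7.67 and 6.07 CPM in del/fl cells. Its ratio was 2.95-fold (95% counting interval 2.54 to 3.44) in line A and 1.39-fold (95% counting interval 1.16 to 1.67) in line B, with both del/del libraries above both controls. Isg15 itself, with its run of overlapping response elements, had 12.4 and 0.313 CPM in del/del cells, against 0.875 and 0.293 CPM in del/fl cells, 14.2-fold higher in line A (counting interval 9.55 to 21.99) and 1.07-fold in line B (0.398 to 2.85).

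Rsad2 (chromosome 12, 26442753 to 26456452) and Cmpk2 (26469204 to 26479835) are neighbours and work in the same pathway, in which Cmpk2 supplies the nucleotide that Rsad2 (viperin) turns into a terminator of viral RNA synthesis. Rsad2 had 44.4 and 3.19 CPM in del/del cells, against 2.73 and 2.55 CPM in del/fl cells. Its ratio was 16.3-fold (95% counting interval 13.03 to 20.6) in line A and 1.25-fold (95% counting interval 0.929 to 1.68) in line B. Cmpk2 had 16.8 and 5.31 CPM in del/del cells, against 7.37 and 6.54 CPM in del/fl cells. The ratio of Cmpk2 was 2.29-fold (95% counting interval 1.95 to 2.68) in line A, smaller than that of its neighbour, and 0.812-fold (95% counting interval 0.661 to 0.996) in line B, where the control stood higher.

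GTPases of the interferon response include guanylate-binding proteins and immunity-related GTPases, which act on the membranes around intracellular pathogens. They were at least 2-fold higher in line A in 6 of 6 tested genes and in line B in 1. Gbp9 (chromosome 5, 105078394 to 105139539) had 51.9 and 8.63 CPM in del/del cells, against 11.5 and 2.82 CPM in del/fl cells. It was higher within both lines, by 4.52-fold (95% counting interval 4.02 to 5.09) in line A and 3.06-fold (95% counting interval 2.42 to 3.91) in line B, yet del/del cells of line B stood below the control of line A. Gbp3, with its overlapping response elements, had 56.5 and 16.4 CPM in del/del cells, against 27.4 and 28.8 CPM in del/fl cells. The lines went in opposite directions, with 2.06-fold (95% counting interval 1.90 to 2.24) in line A and 0.570-fold (95% counting interval 0.512 to 0.634) in line B. Irgm1, a regulator of the other immunity-related GTPases, had 65.5 and 21.7 CPM in del/del cells, against 21.9 and 19.4 CPM in del/fl cells. Its ratio was 2.99-fold (95% counting interval 2.74 to 3.27) in line A and 1.12-fold (95% counting interval 1.01 to 1.25) in line B, so that the del/del library of line A stood apart from the other 3. Gbp2 had 10.7 and 4.44 CPM in del/del cells, against 3.97 and 6.81 CPM in del/fl cells, and like Gbp3 was higher than control in line A and lower in line B. Igtp was 4.68-fold higher in line A (counting interval 3.89 to 5.67) and 1.19-fold in line B (0.881 to 1.60). Mx2, a dynamin-like antiviral GTPase, was 9.42-fold higher in line A (counting interval 6.43 to 14.3) and 1.95-fold in line B (1.16 to 3.36). Its relative Mx1 had 30 and 2 counts in del/del cells, against 4 and 0 in del/fl cells, below the filter. Gbp9 overlaps Gbp4 and Gbp8 on its own strand and Igtp overlaps Irgm2, so their counts may share reads.

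Proteins of the membranes were higher in line A in all 3 tested genes. Ifitm3, which blocks fusion of viruses with endosomes, had 127 and 27.2 CPM in del/del cells, against 55.8 and 29.5 CPM in del/fl cells. The ratio was 2.28-fold (95% counting interval 2.16 to 2.42) in line A and 0.923-fold (95% counting interval 0.842 to 1.01) in line B. Bst2 (tetherin), which holds budding virions on the cell, had 53.7 and 5.19 CPM in del/del cells, against 15.99 and 3.81 CPM in del/fl cells. The ratio of Bst2 was 3.36-fold (95% counting interval 3.04 to 3.73) in line A and 1.36-fold (95% counting interval 1.07 to 1.72) in line B, and the control of line A was already 4.19-fold above that of line B. Rtp4, a transporter chaperone of the Golgi, was 12-fold higher in line A (counting interval 9.03 to 16.3) and 2.44-fold in line B (1.35 to 4.61).

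Among genes of ubiquitin ligases and ADP-ribosyltransferases, 4 of 5 were at least 2-fold higher in line A. Trim30a (chromosome 7, 104409025 to 104465193), known as a brake on inflammatory signalling in the mouse, had 23.3 and 0.938 CPM in del/del cells, against 0.673 and 0 CPM in del/fl cells, which in counts is 780 and 30 against 20 and 0. Its ratio was 34.6-fold (95% counting interval 22.3 to 56.97) in line A, and in line B del/del cells were at least 10.7-fold higher, taking 3 counts as the floor of the control. Trim25, a ligase that activates the RNA sensor RIG-I, had 59.97 and 19.9 CPM in del/del cells, against 15.6 and 16.5 CPM in del/fl cells. Both del/del libraries of Trim25 lay above both controls, at 3.85-fold (95% counting interval 3.48 to 4.27) in line A and 1.21-fold (95% counting interval 1.08 to 1.36) in line B. Parp9, an ADP-ribosyltransferase that works with the ubiquitin ligase Dtx3l, had 39.4 and 12.3 CPM in del/del cells, against 16.7 and 13.6 CPM in del/fl cells. Dtx3l had 28.9 and 11.8 CPM in del/del cells, against 16.02 and 11.5 CPM in del/fl cells. In line A the ratios were 2.36-fold (95% counting interval 2.13 to 2.63) for Parp9 and 1.81-fold (95% counting interval 1.62 to 2.02) for Dtx3l, and in line B both intervals held no change, at 0.911-fold (0.794 to 1.04) and 1.02-fold (0.882 to 1.18). The genes of this pair overlap on opposite strands, so without strand their reads cannot be told apart. Parp9 also overlaps Gm15564 on the opposite strand, which had 2274 and 2880 counts in del/del cells, against 1073 and 1641 in del/fl cells. Parp14, another ADP-ribosyltransferase, was 3.53-fold higher in line A (counting interval 2.98 to 4.21) and 0.978-fold in line B (0.759 to 1.26).

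Of the remaining members, 5 passed the filter and all 5 were at least 2-fold higher in line A. Ifi44 (chromosome 3, 151730922 to 151749947), a cytoplasmic interferon-inducible protein, had 26.8 and 1.22 CPM in del/del cells, against 1.04 and 0.117 CPM in del/fl cells. Both del/del libraries of Ifi44 lay above both controls, by 25.7-fold (95% counting interval 17.98 to 38.1) in line A and 10.4-fold (95% counting interval 3.75 to 40.02) in line B, where the control held 4 counts. Lgals3bp, a secreted glycoprotein that binds galectins, had 112 and 10.1 CPM in del/del cells, against 10.4 and 5.37 CPM in del/fl cells. The ratio was 10.8-fold (95% counting interval 9.58 to 12.1) in line A and 1.88-fold (95% counting interval 1.56 to 2.27) in line B. Samd9l, a restriction factor for poxviruses, had 28.9 and 2.50 CPM in del/del cells, against 3.20 and 1.38 CPM in del/fl cells. The ratio of Samd9l was 9.04-fold (95% counting interval 7.32 to 11.3) in line A and 1.81-fold (95% counting interval 1.25 to 2.66) in line B, with del/del cells of line B below the control of line A. Xaf1, which opposes inhibitors of apoptosis, was 14.7-fold higher in line A (counting interval 10.7 to 20.8) and 1.35-fold in line B (0.650 to 2.85). Ifi35 was the member furthest below its control in line B, at 0.395-fold (0.170 to 0.841), and 2.52-fold higher in line A (1.90 to 3.38). It overlaps Gm11626 on the opposite strand, so its counts may hold reads of that gene. Sp100, a protein of nuclear bodies, had 1 count in del/del A and 0 elsewhere.

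Across the 11 tested members not given library by library under the rule, levels ran between 5.67 and 29.7 CPM in del/del A and between 0.313 and 4.44 in del/del B, against 0.842 to 5.59 in del/fl A and 0.293 to 6.81 in del/fl B. All 11 were at least 2.52-fold higher in line A, and their ratios in line B ran between 0.395 and 2.44. Single genes of these 11, such as Ifit1, Isg15 and Irf7, are described above after their values had been seen. The table has a row Ifi27l1, which RefSeq lists as another symbol of Ifi27. That row is no member by the rule, and it had 3013 and 341 counts in del/del cells, against 226 and 197 in del/fl cells, 11.8-fold (95% counting interval 10.3 to 13.6) in line A and 1.84-fold (95% counting interval 1.54 to 2.21) in line B.

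**Figure D2:**
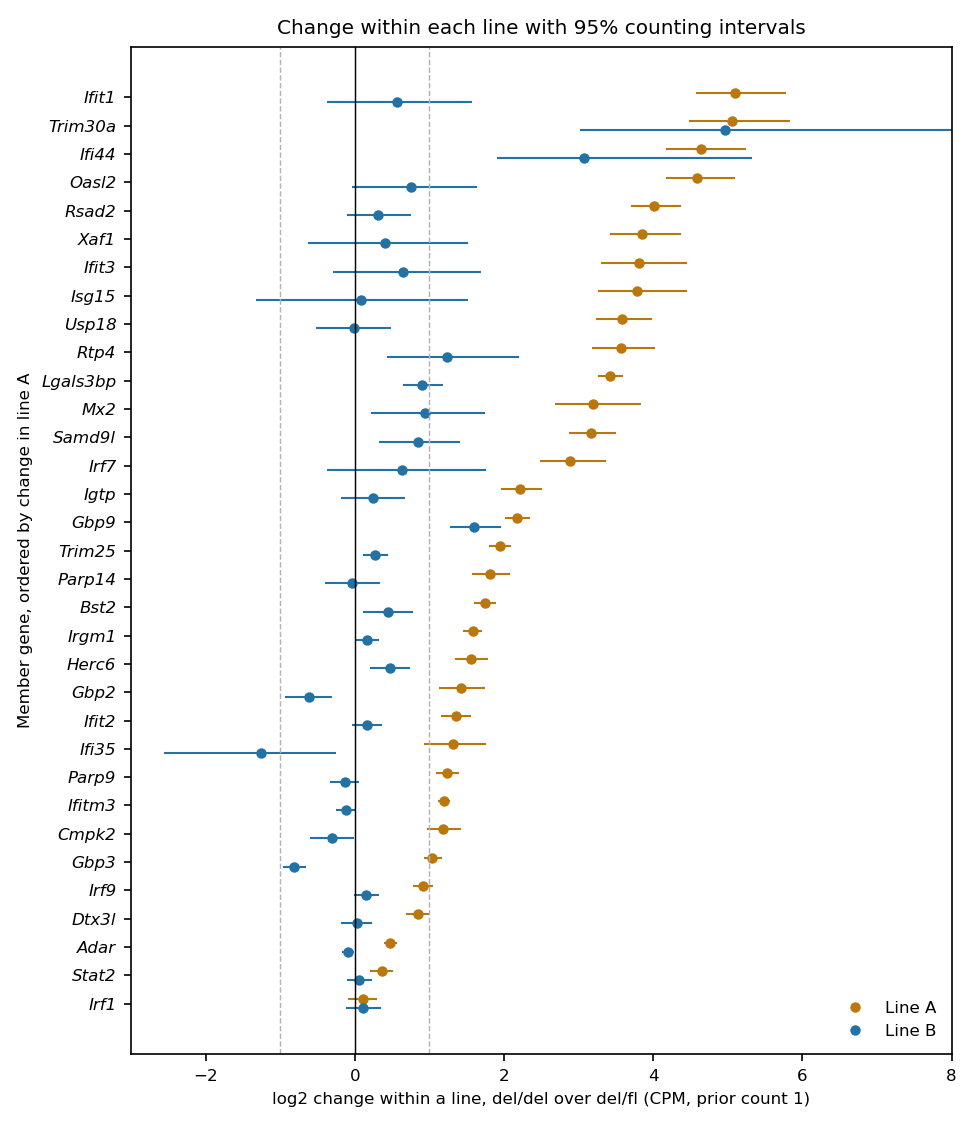
Change of each tested member within line A (brown) and line B (blue), as the log2 ratio of CPM in del/del over del/fl cells with a prior count of 1, with bars for 95% counting intervals (no replicate error). Dashed lines mark 2-fold, and the bar of Trim30a in line B has no upper end because its control had 0 counts. In line A 28 members lie right of the dashed line at 2-fold, in line B 4 do.

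Members with larger ratios in line A tended to have larger ratios in line B. Across the 33 tested members the log2 changes of lines A and B had a Spearman rho of 0.69 and a Pearson r of 0.61, given as a description since the members share their libraries and their low counts. The 33 include Isg15, Ifi44 and Trim30a, of which Trim30a (5.05 and 4.97) and Ifi44 (4.64 and 3.08) were high in both lines. No such correlation was computed over all tested genes or without these members, so the values support nothing. Of the 50 genes with the largest log2 ratio among all tested genes, 11 were members in line A and 2 in line B. Members made up 33 of the 14860 tested genes. The 2 in line B were Trim30a, with its control at 0 counts, and Ifi44, with its control at 4. Both, and Isg15 among the 11 of line A, passed the filter on low counts only with a del/del library. The count in line B therefore supports nothing. The sizes differed between lines for most members, and 24 of 33 stood lower in del/del B than in the control of line A, a share not computed over all genes.

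**Figure D3:**
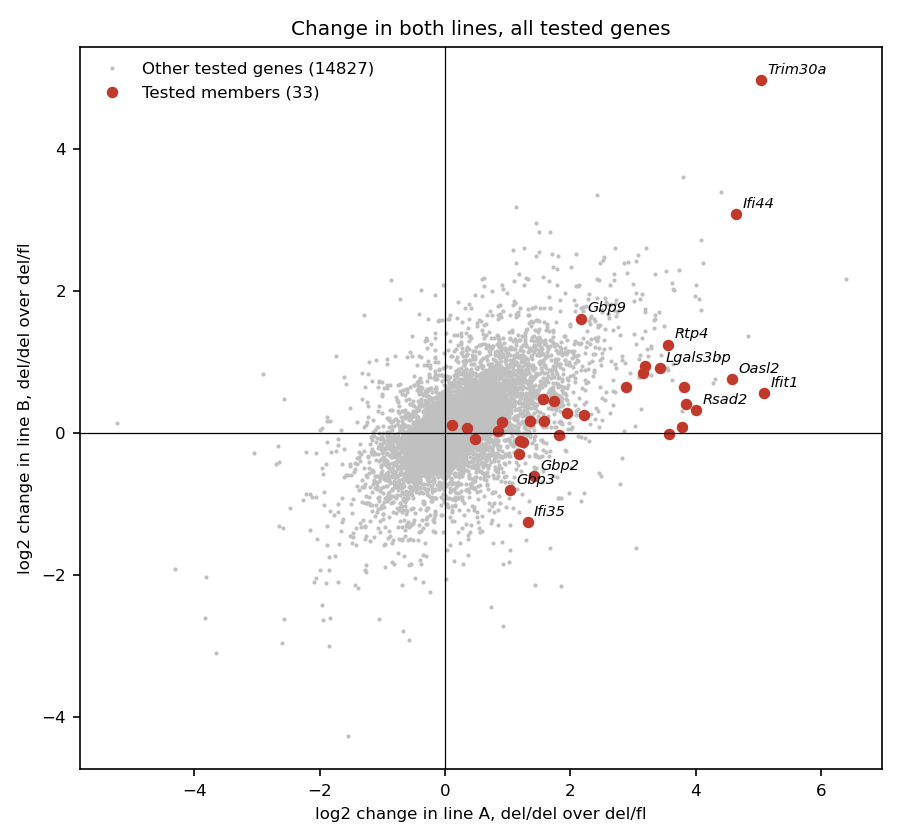
Log2 change of del/del over del/fl cells in line A (horizontal) and in line B (vertical), with all other tested genes as grey points and the 33 tested members as red circles, some of them named. All members lie right of the vertical line at 0, 9 lie below the horizontal line, and Trim30a and Ifi44 lie farthest toward the upper right of the members.

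The question whether the genotypes differ was tested with edgeR's quasi-likelihood test over all 14860 genes, 2 libraries against 2. With genotype as the only term, 0 genes passed a Benjamini-Hochberg adjusted p of 0.05 (0% of all genes) and 0 members did. The members' adjusted p lay between 0.431 and 0.916. This fit leaves out the pairing of libraries by line, and Smchd1 itself did not pass in it (edgeR adjusted p = 0.341). With line as a block Smchd1 passed (edgeR adjusted p = 0.0194). A member that did not pass without the block is therefore not shown to be unchanged. At an unadjusted p of 0.05 the edgeR fit with genotype only gave 0 members in either direction, while 1737 of all genes passed, 6.86% of all genes as higher. DESeq2 with genotype only gave 379 genes and 0 members at an adjusted p of 0.05 (1.78% of all genes as higher). At an unadjusted p of 0.05 it gave 18 members, all higher, against 6.86% of all genes. With line as a block, DESeq2 gave 13 members at an unadjusted p of 0.05, all higher, against 10.4% of all genes, and 8 at an adjusted one, against 5.17%. In edgeR with line as a block, 3 members passed as higher, against 3.71% of all genes, and 0 as lower, against 1.89%. They were Ifi44 (log2 fold change 4.46, SE 0.32, edgeR adjusted p = 0.0194), Trim30a (5.20, SE 0.36, edgeR adjusted p = 0.0194) and Gbp9 (1.94, SE 0.17, edgeR adjusted p = 0.0205). Ifi44 and Trim30a passed the filter on low counts only with a del/del library, the group where they are high. Both are also among the 13 and the 8 members of DESeq2 with the block. Their calls in either program are a description and support nothing. The fitted value of Trim30a depends on the prior count, since 1 control is at 0. No more is read from the count of 3 of 33 beside that background.

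At an unadjusted p of 0.05 the blocked edgeR fit gave 20 of 33 members higher in del/del cells, against 17.2% of all genes. The 20 include Isg15, Ifi44 and Trim30a, which passed the filter on low counts only with a del/del library. Without the block the 3 genes called with it had a log2 fold change of 4.61 (SE 1.83, edgeR adjusted p = 0.441) for Ifi44, 5.20 (SE 2.13, edgeR adjusted p = 0.443) for Trim30a and 2.09 (SE 1.11, edgeR adjusted p = 0.514) for Gbp9. Each library weighed on these fitted values. Without del/del A they were 1.08 for Ifi44, 1.50 for Trim30a and 0.27 for Gbp9, and without del/fl A they were 6.85, 11.6 and 3.42 in the same order, where Trim30a has its only control at 0. Without del/del B they were 5.54, 6.13 and 2.85, without del/fl B 3.74, 4.16 and 1.40, and none of the 3 genes passed in any of these 4 fits (edgeR, genotype only, lone library taken to vary like the other group). Both del/del libraries lay above both controls for 7 members (Ifit2, Ifi44, Trim30a, Mx2, Rsad2, Herc6 and Trim25), against 22.9% of all tested genes, a share near the background that is no result about the members. Rsad2, 2.39 in log2 fold change (SE 0.91, edgeR adjusted p = 0.161 with line as a block), did not pass, with ratios of 16.3 in line A and 1.25 in line B. Removal of the del/del library of line A turned the members' median log2 fold change negative, at −0.07, where it was 1.58 with all libraries (edgeR, genotype only).

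The control libraries also differed from each other in many of the tested members. Of 33 tested members, 28 stood higher in del/fl A than in del/fl B, a share not computed over all genes. The control of line A was at least 2-fold above that of line B for 11 (Isg15, Ifi44, Trim30a, Irf7, Oasl2, Gbp9, Bst2, Xaf1, Rtp4, Ifi35 and Samd9l), against 5.09% of all genes, and at least 2-fold below it for 0, against 2.34%. Ifi44 had 1.04 CPM in del/fl A and 0.117 in del/fl B, a ratio of 8.89. Gbp9 had 11.5 and 2.82 CPM, a ratio of 4.08. Of the 11, Isg15, Ifi44 and Trim30a passed the filter on low counts only with a del/del library. Other members had nearly equal controls, with ratios of 1.07 for Rsad2, 1.08 for Usp18 and 0.945 for Trim25. In both genotypes line A stood above line B for 28 members, again without a share over all genes, the exceptions being Ifit2, Gbp2, Gbp3, Adar and Trim25.

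**Figure D4:**
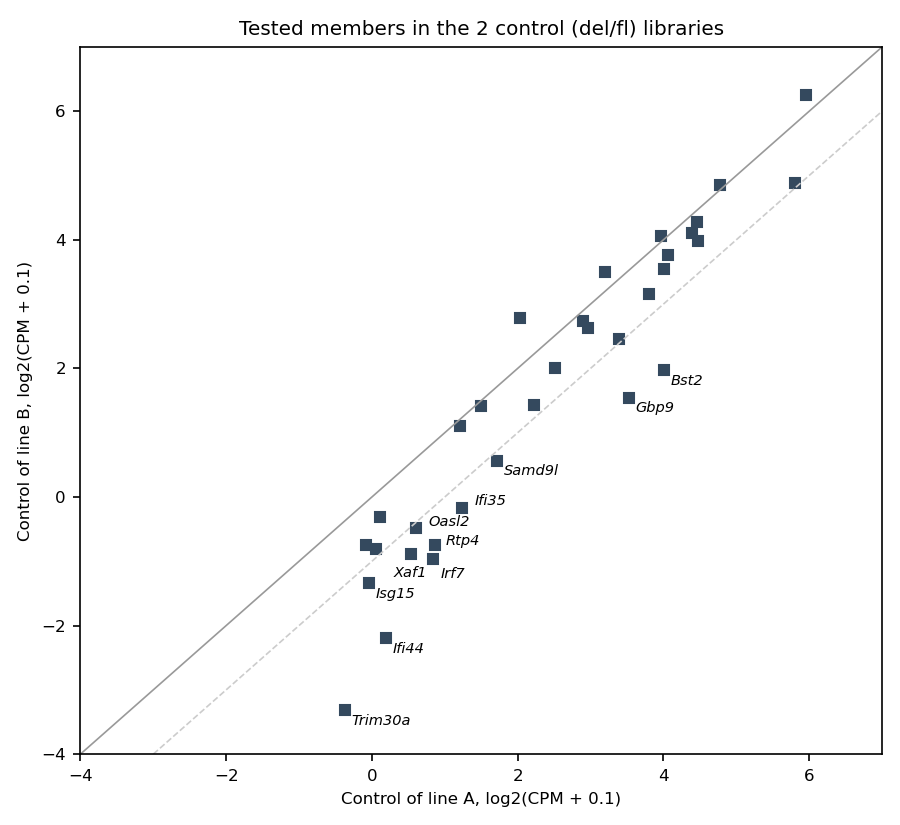
Levels of the 33 tested members in the untransduced Smchd1 del/fl controls, line A on the horizontal and line B on the vertical axis, both as log2(CPM + 0.1), 1 library each. The solid line marks equal levels and the dashed line a 2-fold higher level in line A. Named genes are the 11 with a control of line A at least 2-fold above that of line B, and 28 of 33 members lie below the solid line.

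Upstream of the members, the interferon genes themselves were hardly read. All 10 listed ligands had a row, 9 of them were at 0 in every library, and the other (Ifnk) had 1 count in del/fl A. The receptors and signalling genes were measured in 18 of 19 cases, and 0 passed the edgeR test at an adjusted p of 0.05 with or without the block. At an unadjusted p of 0.05 edgeR gave 0 without and 1 with the block, and DESeq2 1 without and 0 with it. In line A their log2 changes had a median of −0.02, and line B gave −0.07. Stat3, which serves other cytokines, had 9596 and 9455 counts in del/del cells, against 9209 and 11273 in del/fl cells. Jak2, a kinase of the interferon gamma receptor, had 3450 and 6915 counts in del/del cells, against 3988 and 7618 in del/fl cells, and for this gene the lines differed more than the genotypes.

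Of 40 further interferon-stimulated genes, 28 were tested. In line A 12 were at least 2-fold higher and 1 lower, and in line B 2 were higher and 2 lower. The shares of all tested genes were 7.07% higher and 1.59% lower in line A and 3.62% and 1.55% in line B, so the counts in line B lie near the background. The list's median log2 change was 0.84 in line A, and for line B it was 0.01. In edgeR with the block 1 of them passed as higher, against 3.71% of all genes, and 1 as lower, against 1.89%, again near the background. Gbp4, which overlaps Gbp9, had 270 and 34 counts in del/del cells, against 44 and 9 in del/fl cells (blocked edgeR adjusted p = 0.0263, at a log2 fold change of 2.31 with an SE of 0.27). Ifi203, a DNA-binding protein of the interferon-inducible HIN family, went the other way with 80 and 3 counts in del/del cells, against 295 and 11 in del/fl cells (blocked edgeR adjusted p = 0.0323, at a log2 fold change of −2.01 with an SE of 0.26). Cxcl10, a chemokine named after its values were seen, had 607 and 82 counts in del/del cells, against 43 and 52 in del/fl cells, 12.5-fold (95% counting interval 9.19 to 17.5) in line A and 1.68-fold (95% counting interval 1.17 to 2.43) in line B.

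Promoter letters and changes can be set side by side. Of 12 tested members with paired GAAA tetramers, 11 were at least 2-fold higher in line A (median log2 change 1.98, lowest 0.36 for Stat2, highest 5.09 for Ifit1). Of 15 with a promoter in the table and no such match, 11 were (median 1.56), among them Ifi44, whose promoter holds TTTC copies at other spacings. In line B the medians were 0.20 with and 0.27 without the match. Isg15 and Trim30a among the 12, and Ifi44 among the 15, passed the filter on low counts only with a del/del library. Among tested genes that are not members, 11.7% of 341 with the match were at least 2-fold higher in line A, against 6.41% of 9622 without it. In line B these shares were 3.81% and 3.33%. The further interferon-stimulated genes described above were not taken out of these non-members. Trim30a and Stat2 hold 1 copy each in the sequences printed above, and their ratios in line A were 34.6 and 1.28.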

How the data were processed

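RNA of female mouse neural stem cells was sequenced in 4 libraries. The values used are the raw whole-number read counts of each gene, as the authors deposited them, in 1 column per library. The table holds 8 further columns, counts of reads split by parental genome, which the labels do not tie to single samples and which were not used here. Per the submitters' processing notes, reads were processed with bcl2fastq, TopHat2 2.0.12 and edgeR on the mm10 build. The counting tool and its strand setting were not given in the sources used here.

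Labels and column names give each library's genotype, and the numbers in the column names give its line, written as A and B in the order of those numbers. The table repeats 66 symbols. Counts were normalised by TMM, filtered with filterByExpr and tested with edgeR 4.0.16 (R 4.3.3) by its quasi-likelihood test, with a Benjamini-Hochberg adjusted p of 0.05 over all genes as the threshold and no term other than genotype. Both libraries of a number are parts of 1 cell line, per the labels' protocols, which pairs them, and their deviations from the group means correlated at r = 0.72 across genes, which are not independent replicates. The fit with line as a replicate block was an alternative, as were DESeq2 1.42.0 with and without the block, RLE size factors, no filter, and leaving out each library. Between libraries of 1 genotype, chi-square per degree of freedom was 71.6 in del/del and 44.2 in del/fl, above sampling noise. P-values over 2 libraries per group measure the spread of these cultures only.

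Within a line, the log2 ratio of CPM used a prior count of 1, and an exact binomial 95% interval covers counting error only. PCR copies are not independent molecules, so these intervals and the limit of 3 counts behind a count of 0 are too narrow where copies are frequent. The edgeR test was also run on simulated data with known changes, whose outcome is not given here and from which no conclusion is drawn. The members, the other lists and the motifs were chosen with earlier results of these data known. Members given in every library are the 20 with the highest summed CPM and those called with or without the block. From each other list the text takes called genes, or the 2 with the highest mean count where none was called. Promoters were read from RefSeq sequences matched by symbol, and 9 members with a row had none. Gene positions are those of the deposited table. Values of 1 gene of the receptor and signalling list are not reported here.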

Additional observations from a re-analysis of the deposited data

Results flagged for a closer look

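In 5 members the del/del library stood above its control in line A and below it in line B, with both counting intervals clear of no change. The difference between the lines was not tested, since each line has 1 library per genotype. The share of all tested genes with such opposite changes was not computed. The log2 change in line A minus that in line B was 2.04 for Gbp2. For Gbp3, its neighbour among the guanylate-binding proteins on chromosome 3, it was 1.85. It was 1.49 for Cmpk2, the mitochondrial nucleotide kinase. Ifi35 had 2.58, with 10 counts in del/del B against 27 in del/fl B. For Adar, the RNA-editing enzyme, it was 0.57.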

How the results depend on the processing

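With line as a replicate block (paired fit) edgeR called 832 genes, 3 of them members. DESeq2 called 379 genes without the block and 1190 with it, 8 of them members (Ifi44, Trim30a, Irf7, Mx2, Gbp9, Herc6, Rtp4 and Igtp). The replicate block changed no other call of the members. Of the members called, Ifi44 and Trim30a passed the filter on low counts only with a del/del library. The members' median log2 fold change ran between −0.0745 without the del/del library of line A, where its sign reversed, and 2.85 without the del/fl library of line A. It was 1.58 with all libraries and the cause was not tested. A threshold of 4-fold, chosen after seeing the data, left 16 members higher in line A, against 1.61% of all tested genes, and 2 in line B, against 0.444%. The 2 in line B were Ifi44 and Trim30a, and the 16 in line A held both of them and Isg15. These genes passed the filter on low counts only with a del/del library, so the count in line B supports nothing. Single log2 fold changes and ratios kept their direction and their side of the threshold in 325 pairs of a result and an alternative and passed it in 6 pairs where they had not before. Many of these pairs hold a within-line ratio under another scaling or filter, which could hardly move it. A value that kept its direction but shrank also counts as kept, such as Gbp9, at 0.27 without del/del A and 2.09 with all libraries. Depth limits Isg15, Xaf1, Ifit3 and the Oas and Mx genes in line B, where few counts were read, and 1 library per line and genotype limits every within-line value.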
